A study of Homo sapiens with 12 samples.

Results

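The genes described here make cholesterol and fatty acids under the control of the sterol regulatory element binding proteins (SREBPs). They were 35 genes, taken by symbol from the 59276 features of an RNA-seq table: 7 enzymes of the mevalonate pathway, 11 sterol enzymes from squalene synthase onward, 7 genes of SREBP control, 1 sterol carrier, 7 lipogenic enzymes and 2 cholesterol exporters. All 35 had a row. The filter on low values, which asked for 3 or more libraries with a TPM of 1 or more, was passed by 11939 features and by 34 of the members. ABCG1 did not. Every library came from MM1S, an established human multiple myeloma line, so the data describe the cells of a single line. Libraries H1, H2 and H3 are labelled day 0 and are called untreated here, as the study calls them, although the labels give NGI-1 as their treatment too. H4 to H6 were harvested after 2 days, H7 to H9 after 3 days and H10 to H12 after 5 days of culture with NGI-1 at 10 μM, which blocks the oligosaccharyltransferase, the enzyme that attaches N-glycans to proteins in the endoplasmic reticulum. Untreated cells of the later days have no library, and nothing in the labels says that the 3 libraries of a group came from separate cultures, so a p-value measures the spread between these libraries, which may be technical.

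SREBPs are made as membrane proteins of the endoplasmic reticulum, where SCAP, a sterol-sensing N-glycoprotein, binds them and INSIG proteins hold the pair back while sterols are plentiful. When sterols run low, SCAP carries the SREBP to the Golgi, where the proteases encoded by MBTPS1 and MBTPS2 release the part that enters the nucleus. SREBF2 is best known for sterol genes and SREBF1 for fatty acid genes, and INSIG1 is itself an SREBP target. Plasma cells and myeloma cells carry a large endoplasmic reticulum, and its membranes need both kinds of lipid.

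A library's values are log2 of TPM plus 1. TPM is the share of transcripts (transcripts per 1000000), corrected for length, so it keeps no read count and the counting error of a value is unknown. The labels state a depth of more than 60 M read pairs per library. Ribosomal protein and mitochondrially encoded genes together held 38.8% to 39.2% of TPM in the untreated libraries, 44.6% to 45.6% at day 2, 52.9% to 58.5% at day 3 and 61.2% to 64.1% at day 5, so other genes had to share a smaller remainder. The median log2 fold change against untreated over the 11939 features was -0.18 at day 2, -0.73 at day 3 and -0.99 at day 5. Each comparison is therefore given on 2 scales, on the deposited scale and after rescaling, where each library was divided by a factor that centred its abundant features and the same medians became 0.013, -0.027 and -0.019. Fewer cells of a type and less RNA per cell cannot be told apart in such bulk samples. All 9 plasma cell markers examined were present, with a summed TPM between 3050 and 4180 in every library. The 10 markers of other cells summed to between 5.4 and 13.2, most of it CD3E and PECAM1, and PPBP and EPCAM were at 0 in every library. The erythroid marker HBB had a mean TPM of 0 untreated and at day 2, 0.568 at day 3 and 0.805 at day 5. Single plasma cell markers went opposite ways: mean TPM went from 577 untreated to 2090 at day 5 for TNFRSF17, from 1550 to 366 for XBP1 and from 496 to 144 for SDC1, and their part in the results was not tested.

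The group took up less of the RNA in every treated than in every untreated library. Summed over the 35 genes, TPM was 1713, 1721 and 1668 in the untreated libraries, 1464, 1468 and 1408 at day 2, 797, 894 and 758 at day 3, and 568, 629 and 765 on day 5. Days 3 and 5 overlapped, since H12 lay above H9. H8 had the highest day 3 value of 28 members and H12 the highest day 5 value of 34, and both held the smallest ribosomal and mitochondrial share of their day. A gene was called lower or higher where the log2 fold change in limma exceeded 0.5 in either direction with an adjusted p-value under 0.05. At day 2, 8 of the 34 tested members were called lower and 2 higher, against 23.2% and 8.04% of all features tested. Day 3 had 25 members lower and 1 higher, where 61.5% and 7.59% of all features were called, and day 5 had 28 lower and 1 higher, where 69.8% and 7.73% were called. The members' median log2 fold change was -0.18, -1.07 and -1.37 on the 3 days. Without H8 and H12, a fit added after the data were seen, 26 members were called lower at day 3 and 30 at day 5. The share of all features called in that fit was not counted.

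Rescaling split the group in both directions. Day 2 had 2 members called lower and 3 higher, where 11.4% and 12.9% of all features were called. Day 3 had 12 lower and 7 higher, against 24.2% and 23.9%, and day 5 had 13 lower and 7 higher, against 26.9% and 27.5%. The members' rescaled medians were 0.045, -0.28 and -0.26. The 13 members lower at day 5 on both scales were all 7 lipogenic enzymes, ACAT2, NSDHL, EBP, DHCR7, SREBF1 and ABCA1. The 7 that were higher after rescaling were MVD, IDI1, FDFT1, TM7SF2, MSMO1, SC5D and INSIG2, of which only SC5D was also called higher on the deposited scale. With ribosomal protein and mitochondrial genes left out and TPM recomputed, 21 members were called lower and 2 higher at day 5. No share of all features was counted on that scale, so these counts cannot be set against one.

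**Figure D1:**
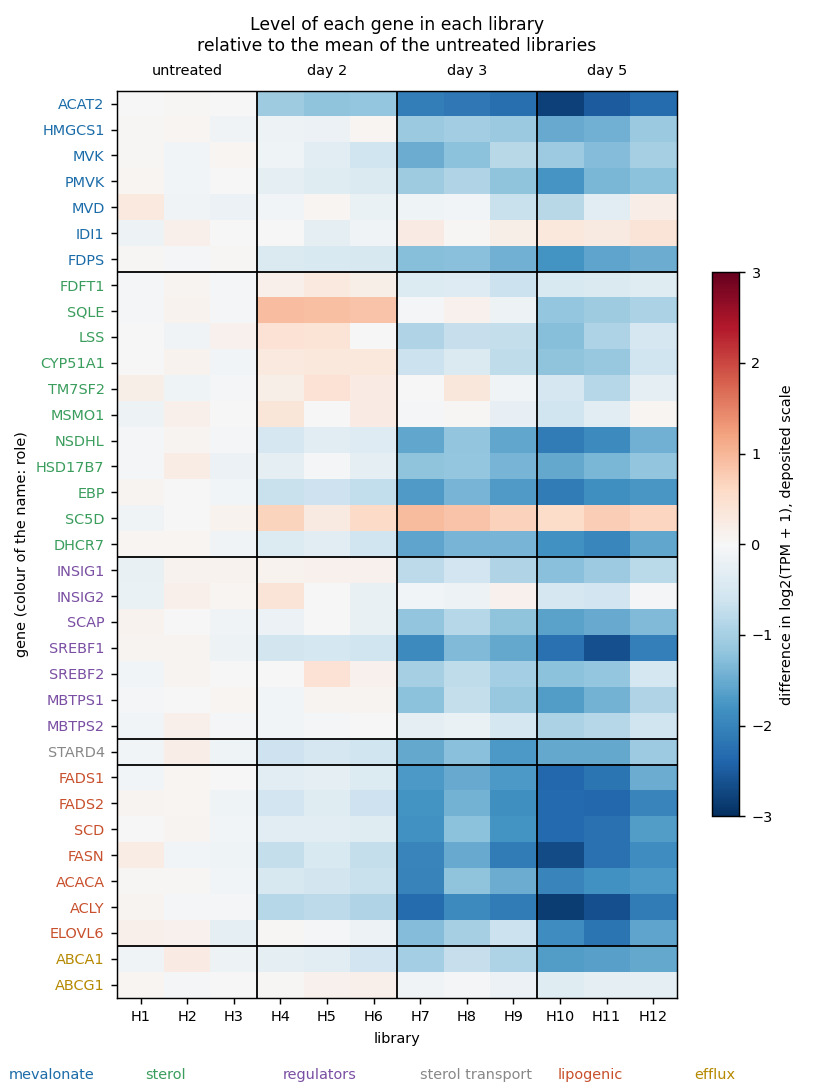
Difference of each gene's log2(TPM + 1) from its mean in the untreated libraries, on the deposited scale, for 35 genes (rows, by role) and 12 libraries (columns); blue is lower and red is higher. The lipogenic rows are blue in every library of days 3 and 5, SC5D is red at every day, and SQLE is red at day 2 and blue at day 5.

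The proximal promoters were examined because these genes are known to share SREBP control. For 30 of the 35 members RefSeq gave the 250 bases before the transcription start on GRCh38.p14, with 1 start for 22 members and several for 8, SC5D and ACLY among them. Each motif was sought on both strands. The sterol regulatory element TCACNCCAC lay before 1 of the 30 members, SREBF2, against 1.09% of the 27305 genes with a window. Only this pattern was sought, so variant elements and those outside the 250 bases were not counted. The E-box CACGTG, which SREBPs can also bind, lay before 4 members, SC5D, INSIG1, SCAP and ABCA1, or 13.3% against 7.73% of all genes. CCAAT, the site of NF-Y, lay before 63.3% of members against 37.0%, and GGGCGG, the GC box of Sp1, before 90.0% against 46.2%. The 27305 genes were taken whether or not they passed the filter on low values, which nearly all members passed. Shares among genes that passed were not counted, so expression may differ between the compared sets. NF-Y and Sp1 are known partners of SREBPs at sterol genes. These shares describe letters and not binding, and no motif of a printed window overlapped another. The windows of 4 genes are printed 5′ to 3′ on the gene's own strand with every motif match in capitals: SREBF2, the gene with the sterol regulatory element (chr22:41832855-41833104, plus strand), EBP and SC5D, the sterol enzymes with the lowest and the highest day 5 change (chrX:48521558-48521807 and chr11:121292521-121292770, both plus strand), and ACLY, the lipogenic enzyme with the lowest (chr17:41919023-41919272, minus strand).
SREBF2: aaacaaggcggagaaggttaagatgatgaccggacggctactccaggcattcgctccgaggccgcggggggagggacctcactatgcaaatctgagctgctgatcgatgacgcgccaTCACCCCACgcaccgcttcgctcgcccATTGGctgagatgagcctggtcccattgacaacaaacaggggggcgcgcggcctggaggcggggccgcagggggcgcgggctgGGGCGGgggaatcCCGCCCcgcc
EBP: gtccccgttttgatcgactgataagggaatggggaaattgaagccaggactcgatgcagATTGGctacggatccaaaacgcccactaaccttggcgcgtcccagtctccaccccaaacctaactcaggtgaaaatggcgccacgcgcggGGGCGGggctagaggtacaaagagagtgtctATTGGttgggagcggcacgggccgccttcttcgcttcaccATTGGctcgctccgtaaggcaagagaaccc
SC5D: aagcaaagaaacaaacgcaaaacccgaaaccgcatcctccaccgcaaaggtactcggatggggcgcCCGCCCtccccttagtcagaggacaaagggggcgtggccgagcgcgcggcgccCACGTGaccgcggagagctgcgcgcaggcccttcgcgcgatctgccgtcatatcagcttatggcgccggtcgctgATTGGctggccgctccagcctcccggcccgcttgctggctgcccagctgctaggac
ACLY: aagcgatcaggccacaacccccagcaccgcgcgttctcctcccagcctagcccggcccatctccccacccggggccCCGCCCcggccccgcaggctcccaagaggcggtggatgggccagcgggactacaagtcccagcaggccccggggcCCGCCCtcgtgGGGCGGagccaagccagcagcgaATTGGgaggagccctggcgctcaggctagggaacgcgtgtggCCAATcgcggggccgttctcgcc
In SREBF2 the sterol regulatory element covered bases 133 to 125 before the start, followed by a CCAAT box at 106 to 102 and GC boxes at 23 to 18 and 10 to 5. SC5D had an E-box at 131 to 126, EBP had 3 CCAAT boxes and ACLY had 2 CCAAT boxes and 3 GC boxes. For SC5D and ACLY these are the windows of the start farthest upstream, and the window of ACLY's other start held 4 GC boxes.

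Of the 7 genes of SREBP control, SREBF1 alone was called lower at day 2, 5 were at day 3 and 6 at day 5, where the shares of all features were the 23.2%, 61.5% and 69.8% given above. After rescaling, 1 was called lower, SREBF1, and 1 higher, INSIG2, on day 3 and again on day 5. Of all features, 24.2% were lower and 23.9% higher after rescaling at day 3, and 26.9% and 27.5% at day 5. SREBF1 (chr17:17810399-17837002), whose protein drives fatty acid genes, had a TPM of 33.4, 33.6 and 28.1 in the untreated libraries, 21.1, 21.7 and 20.6 at day 2, 7.7, 11.99 and 10.3 at day 3 and 5.85, 4.21 and 6.81 on day 5. The groups did not overlap at any step. Its log2 fold change was -0.56 (SE 0.164, limma adjusted p = 0.0135) at day 2, -1.59 (SE 0.164, limma adjusted p = 1.02e-06) at day 3 and -2.32 (SE 0.164, limma adjusted p = 1.40e-08) at day 5, and it was also called lower after rescaling at day 3 (-0.77) and day 5 (-1.20) but not at day 2 (-0.33). It fell again from day 3 to day 5, by 0.73 on the log2 scale (limma adjusted p = 0.00648), a call that was lost in a fit of those groups alone. After rescaling this step was -0.43 (limma adjusted p = 0.0804), was not called, and the libraries overlapped.

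SREBF2 (chr22:41833079-41907308), whose protein drives sterol genes, was first called lower at day 3. Its TPM was 31.8, 35.4 and 33.6 untreated, 34.1, 45.4 and 36.8 at day 2, 16.4, 19.5 and 15.97 at day 3 and 13.8, 14.4 and 23 on day 5. The untreated and day 2 libraries overlapped, days 3 and 5 lay below both, and H12 stood above the other libraries of day 5. The log2 fold change was 0.19 (SE 0.168, limma adjusted p = 0.371) at day 2, -0.92 (SE 0.168, limma adjusted p = 0.000184) at day 3 and -0.97 (SE 0.168, limma adjusted p = 9.12e-05) at day 5. From day 2 to day 3 it fell by 1.12 on the log2 scale, and this step was called after rescaling too (-0.51, limma adjusted p = 0.00358), whereas the rescaled values against untreated were 0.42, -0.091 and 0.20, none of them called.

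SCAP (chr3:47413694-47477126), the escort protein, had 15.9, 14.9 and 13.8 TPM untreated, 12.9, 14.9 and 12.7 at day 2, 5.93, 7.74 and 5.92 at day 3 and 4.17, 4.52 and 5.36 on day 5. Day 3 and day 5 libraries lay below all earlier ones. The log2 fold change of SCAP was -0.13 at day 2, -1.08 at day 3 and -1.48 (SE 0.13, limma adjusted p = 1.18e-07) at day 5, where the rescaled value of -0.40 was under the size needed for a call.

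INSIG1 and INSIG2 hold SCAP in the endoplasmic reticulum. INSIG1, the sterol-responsive form, had 47.6, 60.6 and 60.5 TPM untreated, 60.6, 61.2 and 61.1 at day 2, 32.04, 37.3 and 29.7 at day 3 and 22.7, 25.9 and 31.7 on day 5. The day 2 libraries sat just above the highest untreated value and the later ones below all untreated values. It fell at day 3 (-0.75) and day 5 (-1.05, SE 0.131, limma adjusted p = 4.08e-06), with rescaled values of 0.098 and 0.15 that were not called. INSIG2 had 15.3, 20.01 and 18.5 TPM untreated, 23.7, 17.96 and 15.1 at day 2, 16.8, 15.9 and 19.7 at day 3 and 12.3, 11.6 and 17.01 on day 5, and its groups overlapped throughout. The log2 fold change of INSIG2 of -0.38 at day 5 was not called on the deposited scale (limma adjusted p = 0.0528) unless H12 was left out (-0.54), and it was called higher after rescaling at day 3 (0.78) and day 5 (0.77). Whether the INSIG genes differed from each other was not tested.

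MBTPS1, the site-1 protease, had 27.9, 28.4 and 29.9 TPM untreated, 27.3, 30.6 and 30.7 at day 2, 11.7, 16.98 and 12.4 at day 3 and 8.29, 10.2 and 14.97 on day 5. MBTPS2, the site-2 protease, had 6.32, 7.54 and 6.38 TPM untreated, 6.31, 6.4 and 6.66 at day 2, 5.27, 5.78 and 4.32 at day 3 and 3.02, 3.25 and 4.14 on day 5. Days 3 and 5 lay below the untreated libraries for both genes. MBTPS1 fell at day 3 (-1.03) and at day 5 (-1.33, limma adjusted p = 6.96e-06), and MBTPS2 at day 5 (-0.80, limma adjusted p = 7.65e-05), while their rescaled day 5 values of -0.17 and 0.22 were not called. As a group the regulators had a median log2 fold change of 0.035 at day 2, -0.92 at day 3 and -1.05 at day 5, and of 0.15 at day 5 after rescaling.

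**Figure D2:**
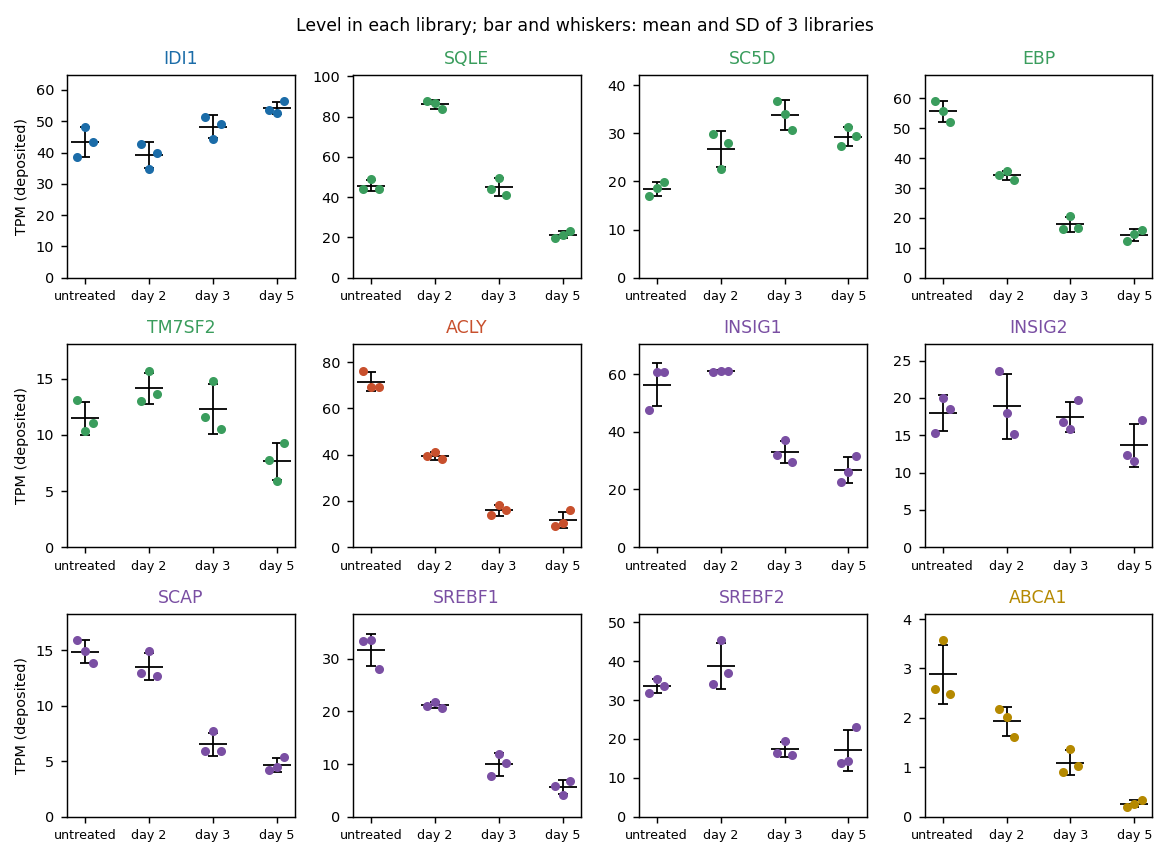
TPM of 12 genes in each library on the deposited scale, by group, each panel with its own axis; points are libraries, and bar and whiskers are the mean and SD of 3 libraries. SQLE peaks at day 2, SC5D lies above the untreated libraries on every day, SREBF1 steps down on each day, and ACLY steps down to day 3, with days 3 and 5 overlapping.

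Of the mevalonate enzymes, 5 of 7 were called lower at days 3 and 5, with medians of -1.08 and -1.36, where 61.5% and 69.8% of all features were lower. After rescaling 1 of them, ACAT2, was called lower and 2, IDI1 and MVD, higher on both days, with medians of -0.26 and -0.20. The rescaled shares of all features were 24.2% lower and 23.9% higher at day 3, and 26.9% and 27.5% at day 5. ACAT2 was the 1 called lower at day 2. ACAT2, the cytosolic thiolase that makes acetoacetyl-CoA, had 26.6, 27.5 and 26.8 TPM untreated, 12.4, 11.2 and 11.6 at day 2, 5.6, 5.37 and 4.81 at day 3 and 3.01, 3.92 and 4.65 on day 5. The groups did not overlap, but the step from day 3 to day 5 (-0.38, limma adjusted p = 0.0401) was under the size needed for a call. Log2 fold changes were -1.14 (SE 0.127, limma adjusted p = 1.02e-05) at day 2, -2.16 (SE 0.127, limma adjusted p = 5.08e-09) at day 3 and -2.54 (SE 0.127, limma adjusted p = 4.93e-10) at day 5, and rescaling left it called lower on each day (-0.90, -1.36 and -1.45). Its exons overlap those of TCP1 and SOD2 on the opposite strand, and the strand setting of the quantification is not given in the sources used here.

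IDI1, the isomerase that makes dimethylallyl diphosphate, stood at the other end of the pathway's range. It had 38.4, 48.3 and 43.4 TPM untreated, 42.9, 34.8 and 39.95 at day 2, 51.4, 44.4 and 49.04 at day 3 and 53.6, 52.6 and 56.5 on day 5. All day 5 libraries lay above all others. Its log2 fold change of 0.32 (SE 0.106, limma adjusted p = 0.0117) at day 5 was under the size needed for a call, and after rescaling it was called higher at day 3 (1.002) and day 5 (1.52).

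HMGCS1, PMVK, MVK and FDPS were called lower at days 3 and 5. FDPS, which makes farnesyl diphosphate and had the highest TPM of the 35 genes, went from 406 ± 15.8 (SD, n = 3) untreated to 297 ± 4.06 at day 2, 162 ± 11.9 at day 3 and 132 ± 14.3 at day 5. PMVK, the next kinase after MVK, went from 165 ± 7.1 to 60.2 ± 11.7, HMGCS1, which condenses acetoacetyl-CoA with acetyl-CoA, from 30.02 ± 1.82 to 11.2 ± 1.85, and MVK, which phosphorylates mevalonate, from 8.49 ± 0.448 to 3.35 ± 0.464. Their log2 fold changes at day 5 lay between -1.62 and -1.13, and none of the 4 was called after rescaling. MVD, the decarboxylase, had replicates far apart (15.5 ± 2.99 untreated and 12.5 ± 4.76 at day 5) and was not called on the deposited scale on any day unless H12 was left out (-0.58 at day 5, called lower), but was called higher after rescaling at day 3 (0.51) and day 5 (0.81). Annotated pseudogenes of FDPS, 8 in all, could take or lend reads. Of the 35 members, 14 share exon bases with a gene on the opposite strand and 5 with one on the same strand, as GENCODE release 29 places them on GRCh38. On the opposite strand these include SREBF1 with RAI1, SREBF2 with SREBF2-AS1, IDI1 with IDI2-AS1 and ACLY with AC125257.2. On the same strand MBTPS2 overlaps YY2.

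The sterol enzymes moved in a mixed way at day 2, with EBP called lower and SQLE and SC5D higher, and a median log2 fold change of 0.21. Of all features, 23.2% were lower and 8.04% higher at day 2. By day 5, 8 of the 11 were called lower and SC5D alone higher, with a median of -0.98, against 69.8% and 7.73% of all features. After rescaling 3 of the 11 were lower and 4 higher at day 5, with a median of 0.14, against 26.9% and 27.5%. SQLE (chr8:124998497-125022283), squalene epoxidase and an oxygen-dependent control point of the pathway, had 44.1, 48.9 and 44.1 TPM untreated, 87.7, 86.8 and 83.7 at day 2, 43.97, 49.7 and 40.8 at day 3 and 19.8, 21.2 and 23.02 on day 5. Every day 2 library was above and every day 5 library below all libraries of the other groups, and day 3 overlapped the untreated level. Its log2 fold change was 0.90 (SE 0.0942, limma adjusted p = 5.87e-06) at day 2, -0.029 (SE 0.0942, limma adjusted p = 0.784) at day 3 and -1.06 (SE 0.0942, limma adjusted p = 1.32e-07) at day 5. The fall from day 2 to day 3 was called (-0.93, SE 0.0942, limma adjusted p = 5.03e-06), as was that from day 3 to day 5 (-1.03, SE 0.0942, limma adjusted p = 2.46e-05), which lay at the 0.486 percentile of all features tested. After rescaling SQLE was called higher at day 2 (1.12) and day 3 (0.82) and not at day 5 (0.13), and the step from day 3 to day 5 was still called lower (-0.69).

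SC5D (chr11:121292453-121308694), the desaturase that acts on lathosterol, was called higher on each day on both scales. It had 16.98, 18.6 and 19.9 TPM untreated, 29.8, 22.5 and 27.96 at day 2, 36.7, 34.1 and 30.6 at day 3 and 27.3, 31.2 and 29.4 on day 5. Every treated library lay above every untreated library. Log2 fold changes were 0.51 (SE 0.117, limma adjusted p = 0.0034) at day 2, 0.84 (SE 0.117, limma adjusted p = 1.78e-05) at day 3 and 0.64 (SE 0.117, limma adjusted p = 0.000162) at day 5, and the day 2 call was lost on leaving out H1, H4 or H6, with values between 0.43 and 0.47.

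EBP, the sterol isomerase that acts just before SC5D, was lower than untreated on each day. It had 59.1, 55.7 and 52.2 TPM untreated, 34.4, 35.7 and 32.8 at day 2, 16.4, 20.7 and 16.5 at day 3 and 12.2, 14.7 and 15.97 on day 5. The groups did not overlap, but the step from day 3 to day 5 was not called (-0.30, limma adjusted p = 0.0706, and 0.038 after rescaling). The log2 fold change of EBP was -0.68 (SE 0.117, limma adjusted p = 0.000399) at day 2, -1.59 (SE 0.117, limma adjusted p = 4.27e-08) at day 3 and -1.89 (SE 0.117, limma adjusted p = 3.89e-09) at day 5, with rescaled values of -0.45, -0.75 and -0.71, of which the last 2 were called lower. TM7SF2, a sterol reductase, had 13.2, 10.3 and 11.02 TPM untreated, 13.1, 15.7 and 13.7 at day 2, 11.6, 14.8 and 10.5 at day 3 and 7.78, 5.9 and 9.24 on day 5. Its day 5 libraries were the lowest of all. TM7SF2 was called lower at day 5 on the deposited scale (-0.54, limma adjusted p = 0.00631) and higher after rescaling (0.56, limma adjusted p = 0.00204), so no direction can be given. The first of these calls was lost on leaving out H1 (-0.45) or H11 (-0.39). At day 3 it was called higher after rescaling (0.87, limma adjusted p = 7.62e-05) and not called on the deposited scale (0.083). Its exons overlap those of VPS51 on the same strand.

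DHCR7 and NSDHL also fell at days 3 and 5. DHCR7, a reductase of the last steps, went from 62.5 ± 3.81 (SD, n = 3) untreated to 45.8 ± 4.5 at day 2, 22.2 ± 1.68 at day 3 and 17.6 ± 2.57 at day 5. NSDHL, of the demethylation complex, went from 38.7 ± 2.0 to 10.5 ± 2.77. Both were called lower on those days on both scales, with log2 fold changes at day 5 of -1.78 and -1.82 on the deposited scale and -0.59 and -0.66 after rescaling. HSD17B7, of the same complex, fell at days 3 and 5 on the deposited scale alone (-1.36 at day 5). The earlier enzymes LSS, lanosterol synthase, and CYP51A1, lanosterol demethylase, were called lower at days 3 and 5, with log2 fold changes at day 5 of -0.90 and -0.98 and rescaled values of 0.14 and 0.22 that were not called. FDFT1, squalene synthase, and MSMO1, which starts the removal of the remaining methyl groups, were not called on the deposited scale on any day (-0.42 and -0.29 at day 5), except FDFT1 at day 3 without H1, H7 or H8 (-0.51 to -0.53), and were called higher after rescaling at day 5 (0.78 and 0.89). MSMO1 was also called higher after rescaling at day 3 (0.76, limma adjusted p = 7.47e-05). Annotated pseudogenes of CYP51A1 and HSD17B7 make the values of those 2 genes less certain.

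STARD4, which carries cholesterol between membranes, had 9.2, 11.5 and 9.0 TPM untreated, 6.08, 6.67 and 6.16 at day 2, 2.76, 3.58 and 2.28 at day 3 and 2.75, 2.78 and 4.08 on day 5. Every treated library lay below every untreated library, and days 3 and 5 overlapped. It was called lower on each day (-0.57, -1.50 and -1.39) and after rescaling at day 3 alone (-0.77), and the day 2 call was lost without H2 (-0.47). Its antisense neighbour STARD4-AS1 shares exon bases with it.

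All 7 lipogenic enzymes were called lower at days 3 and 5, and FADS2, FASN, ACACA and ACLY already at day 2, with medians of -0.52, -1.65 and -2.08 on the 3 days. Of all features, 23.2%, 61.5% and 69.8% were called lower on those days. The day 2 calls were lost for FADS2 without H1, H2, H4 or H6 (-0.47 to -0.50), for FASN without H1, H4 or H6 (-0.51 to -0.58) and for ACACA without H6 (-0.51). After rescaling 6 were called lower at day 3 and 7 at day 5, against 24.2% and 26.9% of all features, with a day 5 median of -0.88. The middle member of the 7 stood at the 9.99 percentile of all features tested at day 5. ACLY (chr17:41866908-41930542), which makes cytosolic acetyl-CoA from citrate, had 76.4, 69.4 and 69.2 TPM untreated, 39.4, 41.3 and 37.95 at day 2, 13.7, 18.3 and 15.9 at day 3 and 9.13, 10.6 and 15.9 on day 5. Day 3 and day 5 overlapped through H12, and the other groups were apart. Its log2 fold change was -0.84 (SE 0.159, limma adjusted p = 0.000835) at day 2, -2.10 (SE 0.159, limma adjusted p = 5.49e-08) at day 3 and -2.53 (SE 0.159, limma adjusted p = 4.47e-09) at day 5, called lower after rescaling on each day (-0.61, -1.26 and -1.36).

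ACACA, acetyl-CoA carboxylase and the lipogenic member with the smallest fall at day 5 on the deposited scale, had 14.7, 14.7 and 13.4 TPM untreated, 9.92, 9.5 and 8.55 at day 2, 2.79, 5.57 and 4.42 at day 3 and 2.84, 3.32 and 3.62 on day 5. The day 3 and day 5 libraries overlapped and all lay below day 2. The log2 fold change of ACACA was -1.85 (SE 0.169, limma adjusted p = 1.86e-07) at day 5 and -0.79 after rescaling, where ELOVL6 had the smallest fall (-0.73). SCD, which puts the double bond into stearate, had the highest level of the set, with 146 ± 8.05 TPM (SD, n = 3) untreated and 34.5 ± 9.24 at day 5. FASN, fatty acid synthase, went from 37.1 ± 5.25 to 7.13 ± 2.24, and the desaturases FADS1 and FADS2 from 38.97 ± 2.22 to 9.29 ± 3.47 and from 58.4 ± 4.17 to 11.7 ± 1.96. Their log2 fold changes at day 5 lay between -2.26 and -2.01, and between -1.12 and -0.86 after rescaling. ELOVL6, the elongase of palmitate, was later, with 38.3 ± 5.94 untreated, 36.5 ± 2.25 at day 2, 19.01 ± 4.56 at day 3 and 9.74 ± 2.21 at day 5, and a further called fall from day 3 to day 5 (-0.89, SE 0.179, limma adjusted p = 0.00344). FADS1 and FADS2 lie on opposite strands with overlapping exons, and FADS2 also overlaps FEN1 on its own strand.

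**Figure D3:**
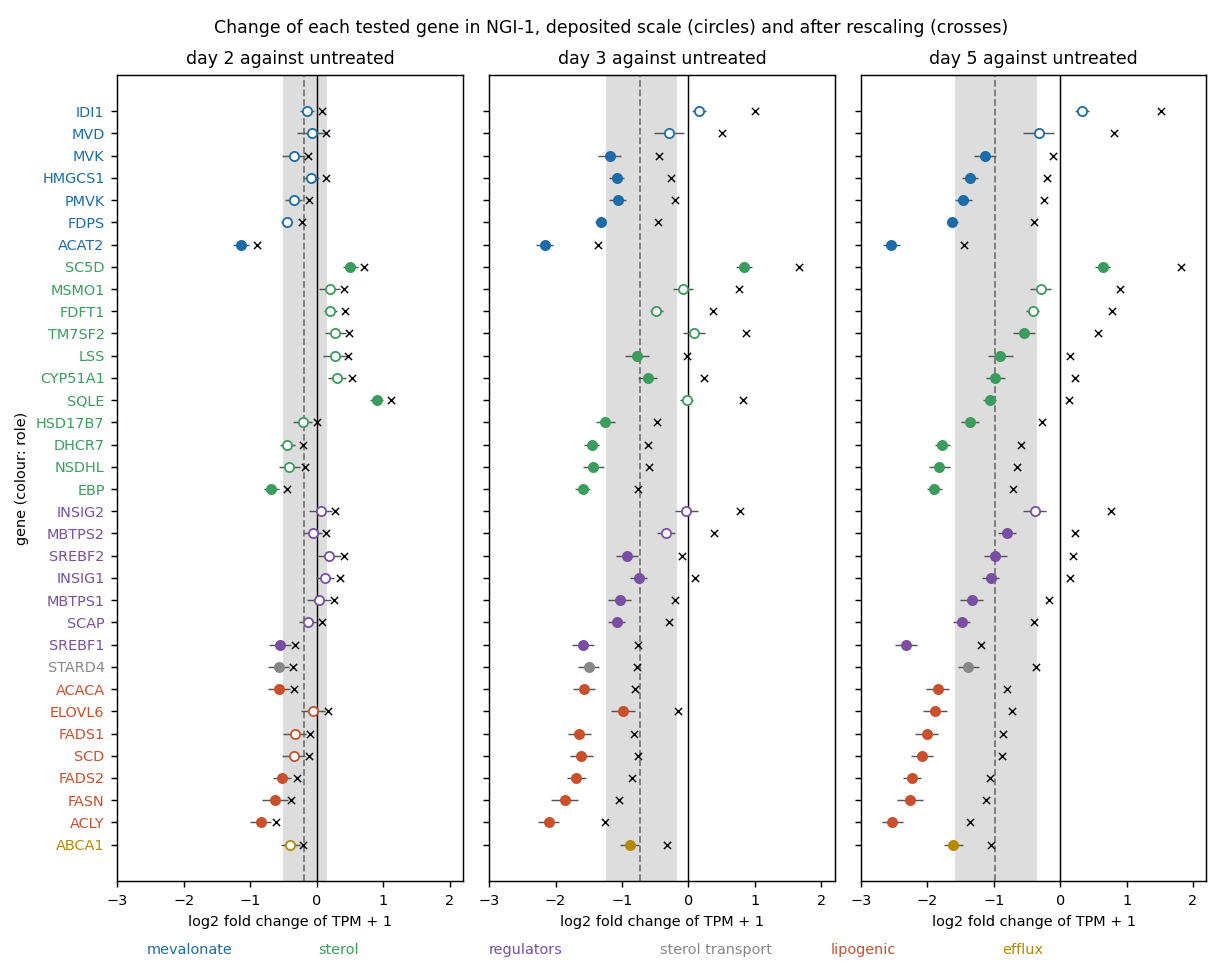
Log2 fold change against untreated of the 34 tested genes at days 2, 3 and 5, with circles and SE whiskers for the deposited scale (filled where called) and crosses after rescaling; the dashed line and grey band are the median and middle range (25th to 75th percentile) of all tested features. Circles of the lipogenic genes lie left of the band at day 5, while SC5D, IDI1, MVD and MSMO1 lie right of it.

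The exporters were scarce. ABCA1, which loads cholesterol onto apolipoprotein particles, had 2.59, 3.57 and 2.49 TPM untreated, 2.17, 2.02 and 1.61 at day 2, 0.899, 1.37 and 1.03 at day 3 and 0.208, 0.251 and 0.34 on day 5. Every day 5 library was below every earlier library. It fell at day 3 (-0.88) and at day 5 (-1.61, SE 0.144, limma adjusted p = 1.48e-07), with rescaled values of -0.32, not called, and -1.04, called lower. It fell again from day 3 to day 5 on both scales (-0.72 deposited and -0.72 rescaled), and since 1 was added to TPM before the log2, a fold change at such levels is understated. ABCG1, a second exporter, was under the filter and was not tested, with 0.338, 0.236 and 0.273 TPM untreated, 0.322, 0.398 and 0.422 at day 2, 0.195, 0.25 and 0.13 at day 3 and 0, 0.0443 and 0.0591 on day 5, where H10 was listed at 0.

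Most of the change on the deposited scale came between days 2 and 3. In that step 26 members were called lower, against 55.5% of all features, and the members' median was -0.93 where that of all features was -0.57. Adding 1 before the log2 understates changes at low TPM, and members and all features were not matched by level. No member was called higher by limma, against 3.22% of all features, although the 2 at an unadjusted p under 0.05, IDI1 (0.30, limma adjusted p = 0.0213) and SC5D (0.33, limma adjusted p = 0.0207), missed the call by size alone. After rescaling, SREBF2, FADS1, FADS2, SCD, FASN and ACLY were called lower and IDI1, SC5D and INSIG2 higher, that is 6 and 3 members, against 13.6% and 14.3%. From day 3 to day 5, SQLE, TM7SF2, SREBF1, FADS2, ELOVL6 and ABCA1 were called lower, 6 members against 13.1% of all features, with a median of -0.33 beside -0.25. No member was called higher by limma, 0 also at an unadjusted p under 0.05, against 0.670% of all features. The count of 6 became 16 when H12 was left out, and H12 held the highest day 5 value of 34 of the 35 members. The share of all features called without H12 was not counted. The TM7SF2 call was lost without H8 or H11 (-0.50 and -0.47) and that of FADS2 without H8, H10 or H11 (-0.41 to -0.49), and those of TM7SF2, SREBF1 and FADS2 in a fit of the 2 groups alone. After rescaling SQLE and ABCA1 were called lower and IDI1 higher (0.52), against 2.03% and 4.43%.

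**Figure D4:**
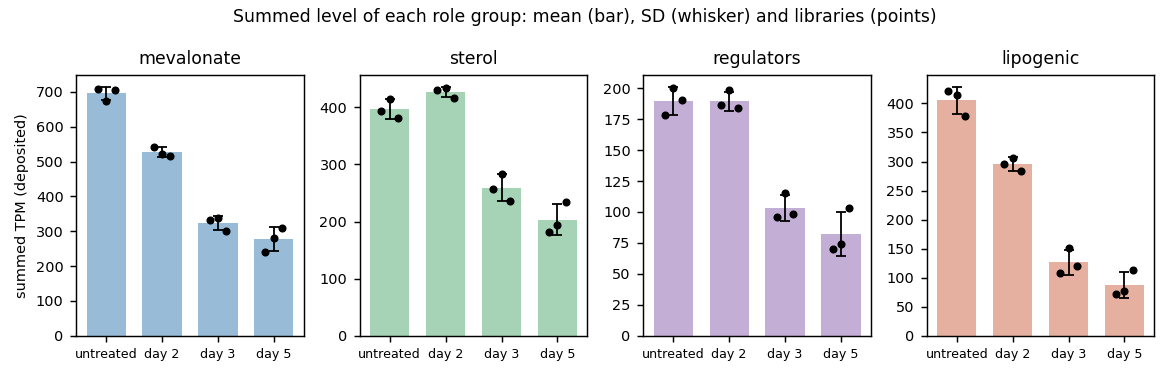
Summed TPM of the mevalonate, sterol, regulator and lipogenic genes on the deposited scale; bars are means of 3 libraries, whiskers SD and points libraries, each panel with its own axis from 0. The sterol sum is 397 untreated and 427 at day 2 before it drops to 203 at day 5, while the lipogenic sum steps from 405 to 295, 126 and 87.5.

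Other genes of the same pathways, 62 on 5 lists of which 53 were tested, were counted by the same rule. At day 2, 14 were called lower and 1 higher, at day 3, 38 lower, and at day 5, 42 lower, with medians of -0.18, -0.88 and -1.27. Of all features tested, 23.2%, 61.5% and 69.8% were lower on those days. None was called higher by limma at day 3 or day 5 (1 and 0 at an unadjusted p under 0.05), the 1 being FNTA, which missed the call by size alone (0.29, limma adjusted p = 0.0127). After rescaling the counts at day 5 were 17 lower and 12 higher, against 26.9% and 27.5% of all features. Among other genes of sterol synthesis and uptake, 11 of 12 tested were called lower at day 5, and after rescaling 5 were lower and 2 higher. LBR, the lamin B receptor and the other sterol reductase of TM7SF2's step, went from 73.1 TPM untreated to 27.2, 10.7 and 7.65, with log2 fold changes of -1.39, -2.67 and -3.13 (SE 0.15, limma adjusted p = 3.44e-10), and was called lower on both scales on each day. LIPA, the lysosomal cholesteryl ester hydrolase, was at the other end with -0.22 at day 5, not called, and 0.98 after rescaling, called higher. Of the genes of SREBP processing and degradation, 9 of 11 were called lower at day 5 (4 lower and 2 higher after rescaling), and the list ran from ERLIN1, which binds the SREBP complex in the endoplasmic reticulum (-2.16), to FBXW7, the ubiquitin ligase of nuclear SREBPs (-0.25, not called).

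The remaining lists stood as follows. Of all features tested, 69.8% were called lower at day 5, and after rescaling 26.9% were lower and 27.5% higher. Of other lipogenic and acyl-CoA genes, 10 of 13 tested were called lower at day 5, with a median of -0.69 (2 lower and 4 higher after rescaling), and the list ran from the elongase ELOVL5 (-1.49) to ACSS2, which makes acetyl-CoA from acetate (0.10, not called, and 1.07 after rescaling, called higher). The 7 lipogenic members had a median of -2.08 on the same day, and the difference was not tested. Of 6 tested genes of the oxysterol response, where LXR receptors switch on genes such as ABCA1, 4 were called lower (2 lower and 1 higher after rescaling), and the list ran from LPCAT3, a phospholipid acyltransferase (-1.78), to SMPDL3A (-0.33, not called). Of 11 genes that use farnesyl diphosphate, the branch point product of FDPS, or prenyl diphosphates made from it, 8 were called lower. After rescaling 4 of these 11 were lower and 3 higher. That list ran from PDSS1, which builds the coenzyme Q tail (-2.44, SE 0.123, limma adjusted p = 5.47e-10, -1.36 after rescaling, called lower), to FNTA, a farnesyltransferase subunit (0.15, not called, and 1.36 after rescaling, called higher).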

How the data were processed

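MM1S cells were sequenced as total RNA in 12 libraries, 3 in each of 4 groups. The authors deposited log2 values of TPM plus 1 per gene symbol, and the submitters' processing notes name FastQC, Trimmomatic, STAR, Salmon and hg38, without versions. The annotation and strand setting are not given in the sources used here. TPM was recovered by undoing the log2, and every library had the same sum but for rounding.

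Features were kept where 3 or more libraries reached a TPM of 1, and the 11939 kept were fitted with limma 3.58.1 in R 4.3.3, with 1 mean per group, a mean-variance trend and 5 contrasts. P-values were two-sided and were adjusted over all features of a contrast (Benjamini-Hochberg). For rescaling, the log2 ratio of each of 5433 abundant features (mean TPM 10 or more) to its mean across libraries was taken, and each library was divided by the factor that brought the median ratio to 0. The factors ran from 0.573 to 1.505. Overlaps came from GENCODE release 29 and promoters from RefSeq, and figures were drawn with matplotlib 3.10.9.

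The members and lists were chosen with earlier results of these data known. Values in every library are given for the SREBP regulators, the exporters and STARD4, for the largest fall and the largest rise (or smallest fall) at day 5 in each enzyme group, and for members called in opposite directions between scales or between days 2 and 5. On each list of other genes the same extremes are named. Alternatives were rescaling, no ribosomal protein or mitochondrial genes, other filters, a pseudocount of 0.1, pairwise fits, a fold change threshold of 1 and leaving out each library. Some single-gene results are left out.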

Additional observations from a re-analysis of the deposited data

Results flagged for a closer look

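On the deposited scale SQLE moved in opposite directions on different days. Its log2 fold change against untreated was 0.90 at day 2, -0.029 at day 3 and -1.06 at day 5, with all 3 day 2 libraries above and all 3 day 5 libraries below the untreated ones. These contrasts share the untreated libraries, so the days were compared directly: SQLE fell by 0.93 on the log2 scale from day 2 to day 3 (limma adjusted p = 5.03e-06) and by 1.03 from day 3 to day 5 (limma adjusted p = 2.46e-05). After rescaling the day 5 value against untreated was 0.13 and was not called, while the fall from day 3 to day 5 was still called at -0.69. The deposited day 5 value against untreated stood at the 46.8 percentile of all features tested.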

How the results depend on the processing

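Results are given as log2 fold changes or as counts of members called. The share of all features called was counted only in the main fits on the deposited and rescaled scales. No paired analysis was possible because the labels number the libraries in 1 run from H1 to H12 and give no replicate number that groups share; the numbers 1 to 3 within a group were given here in accession order and only name libraries.

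Rescaling gave 2 members lower at day 2, with 12 lower and 7 higher on day 3, then 13 lower and 7 higher on day 5, 6 lower and 3 higher from day 2 to day 3, and 2 lower and 1 higher from day 3 to day 5. The other lists became 7 lower and 6 higher at day 2, then 12 and 11 on day 3 and finally 17 and 12 on day 5. It turned the sign, where 1 of the 2 values was called, at day 3 and day 5 respectively for MVD (0.51 and 0.81), SQLE (0.82 and 0.13), CYP51A1 (0.24 and 0.22), MSMO1 (0.76 and 0.89), INSIG1 (0.098 and 0.15) and INSIG2 (0.78 and 0.77, with 0.51 from day 2 to day 3), and at day 5 for FDFT1 (0.78), LSS (0.14), TM7SF2 (0.56), SREBF2 (0.20) and MBTPS2 (0.22). Without ribosomal protein and mitochondrial genes there were 3 members lower at day 2, 3 higher on day 3, 2 higher on day 5 and 2 higher from day 2 to day 3, and TM7SF2 at day 5 was 0.11. These scalings multiply the TPM of all genes kept in a library alike. Since 1 is added before the log2, the log2 values of genes at low TPM shift less. At day 5 rescaling moved FDPS from -1.62 to -0.40 but ABCA1 from -1.61 to -1.04. Which of the scalings reflects RNA per cell was not tested.

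A fold change threshold of 1 left 1 member lower and 0 higher at day 2, none (0) higher on either later day, 14 lower from day 2 to day 3 and 1 lower from day 3 to day 5. Pairwise fits gave 3 lower from day 3 to day 5. Leaving out each library gave 5 to 9 members lower and 1 to 2 higher at day 2, 25 to 26 lower at day 3, 27 to 30 lower at day 5, 26 to 27 lower from day 2 to day 3, and 4 to 16 lower from day 3 to day 5. The fewest at day 2 came without H6, the most from day 3 to day 5 without H12. Of 2040 single-gene values with a library left out, none changed the sign of a call, 19 lost and 22 gained one, and 24 changed sign where neither value was called. The filters and the pseudocount lost 1 call and gained 2. The cause of these shifts was not tested beyond what each setting itself changes. TPM keeps no read depth, so precision rests on 3 libraries a group.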
